A study of Mus musculus with 104 samples.

Results

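Gene expression of muscle stem cells was compared between aged and adult mice that had both been kept under calorie restriction (CR). The comparison used the 58 arrays whose titles name the restricted diet, 26 from aged and 32 from adult animals. The remaining 46 arrays of the series, from aged and adult mice on the control diet, were drawn on for the same age difference without restriction. All mice of all groups carried a Per1-Venus BAC transgene, a reporter of the clock gene Per1, on a C57B6/J background, so no group without the reporter is compared here. Adult CR mice were 47 to 57 weeks old by their age tag and had entered the diet at 19 to 29 weeks. Aged CR mice were 83 to 97 weeks old and had entered it at 55 to 69 weeks. Both received 30% less food than freely fed mice for 25 weeks, after 3 weeks in which food was cut by 10% a week. Cells of skeletal muscle were collected at 6 times of day, 4 h apart, with 5 or 6 adult and 4 or 5 aged arrays at each. The titles call the arrays biological replicates, and the labels used here describe no sorting gate.

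Muscle stem cells, also called satellite cells, lie between the muscle fibre and its sheath, stay quiescent in resting muscle, and divide to repair fibres after damage. They are marked by the transcription factor Pax7 and enter differentiation through factors such as Myod1 and Myog. Like most cells they hold a molecular clock, in which the activators Arntl, Clock and Npas2 drive the Per and Cry repressors through E-box sequences, and Dbp, Tef and Hlf act through D-box sequences. Satellite cells lie among Schwann cells of nerve branches, pericytes and smooth muscle of vessels, fibroblasts and tendon cells, whose RNA an isolation can carry along.

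Muscle stem cell markers were bright on the arrays, but some markers of neighbouring cells were brighter. Over the CR arrays, Pax7 averaged 9.88 on the log2 scale, Myf5 9.54, Itga7 9.38 and Cdh15 7.94. Of the markers of neighbouring cells, Myh11 at 11.14, Acta2 at 10.87 and Dcn at 10.45 were above Pax7, and Sox10 was at 8.88. These bulk values do not give the share of each cell type. The leukocyte markers Ptprc, Cd3e, Adgre1 and S100a8, the fibre myosin Myh4, the fat marker Adipoq and Pdgfra fell below the filter on dim probe sets. Other leukocyte markers passed it, Cd79a at 7.63, S100a9 at 5.53, Csf1r at 5.14 and C1qa at 4.90. So did the fibre genes Acta1 (6.35) and Ckm (5.77) and the red cell gene Hba-a1 (7.40). Ly6a and Plin1 were not analysed here. The lowest correlation between an array and another of its group was 0.962 in the adult and 0.968 in the aged arm. The adult CR arrays 4 and 5 and the aged CR arrays 1 and 3 of time 0 h had the lowest median correlations with their groups, and results that rest on the adult pair are given without it too.

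Age moved the daily mean of a small share of genes, mostly upward. Of 11853 genes, limma called 230 (1.94%) at a 5% false discovery rate, 176 higher (1.48%) and 54 lower (0.456%) in aged CR cells. The differences were modest. The median was 0.35 on the log2 scale among genes called higher and -0.26 among genes called lower, 9 genes passed 1.5-fold, and the largest change was 1.61-fold. The sign was the same at all 6 times for 161 of the 230 genes and at 5 or more times for 225. Omission of all arrays of one time other than 4 h left between 63 calls (without 8 h) and 118 (without 20 h), and matching the arms at replicates 1 to 4 left 128.

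The increases of largest size were those of Sncg, Aqp1, Tnc and Tinagl1. Sncg, a synuclein of peripheral neurons, ranged from 7.18 to 8.97 in adult CR arrays with a median of 8.15, and from 7.92 to 10.16 in aged CR arrays with a median of 8.83. The arms overlapped, but 24 of 26 aged arrays lay above the adult median, and the difference of day means was 0.68 ± 0.12 (SE, limma adjusted p = 0.00061). Tinagl1, a matrix glycoprotein of basement membranes, ran from 6.75 to 8.99 (median 7.82) in adult and from 7.80 to 9.49 (median 8.51) in aged arrays. Here 25 of 26 aged arrays exceeded the adult median, a difference of 0.64 ± 0.12 (limma adjusted p = 0.0011). Both genes were called in all 58 fits that left out a single array.

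Aqp1, Tnc and several further genes rose by amounts close to these. Ceacam1, an adhesion receptor, rose from a median of 6.38 (range 4.93 to 7.90) to 7.16 (5.76 to 8.70), by 0.62 ± 0.13 (limma adjusted p = 0.0034). Mertk, a receptor for dying cells and debris, rose by 0.57 ± 0.13 and the phosphatase gene Dusp15 by 0.57 ± 0.14. The water channel Aqp1 went from a median of 4.90 (range 4.24 to 6.22) to 5.52 (4.29 to 7.05), with 22 of 26 aged arrays above the adult median. Cxcl14, a chemokine of fibroblasts, went from 6.70 (5.11 to 8.80) to 7.38 (6.18 to 8.22), with 23 of 26 above it. Tnc, a matrix glycoprotein of tendon, nerve and healing tissue, had medians of 5.07 (3.98 to 6.02) and 5.43 (4.27 to 6.95), a difference of 0.64 ± 0.16 (limma adjusted p = 0.020). All of these overlapped between arms, and their differences rest on the bulk of the arrays rather than on separation.

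Among genes that fell, several lay below the adult median in most aged arrays, though the arms overlapped. Bag3, a co-chaperone that clears damaged fibre proteins, ran from 7.35 to 9.09 in adult CR arrays (median 8.34) and from 7.48 to 8.32 in aged CR arrays (median 8.02). None of the 26 aged arrays reached the adult median, and the difference was -0.34 ± 0.09 (limma adjusted p = 0.019). The Bag3 call was lost under 6 of 21 alternative settings. Zfp655, a zinc-finger gene whose span overlaps Gm6287, had an adult range of 7.01 to 8.38 (median 7.73) and an aged range of 6.17 to 7.80 (median 7.21). It was lower in 25 of 26 aged arrays, by -0.51 ± 0.10 (limma adjusted p = 0.0013). Ypel4 ran from 6.37 to 8.00 (median 7.21) in adult and from 5.91 to 7.40 (median 6.92) in aged arrays, lower in 24 of 26, by -0.44 ± 0.09 (limma adjusted p = 0.0023). Of the 51 genes named by rule for a level difference, Zfp655 and Ypel4 were those called under all 21 alternative settings and in all 58 single-array omissions.

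The chemokine gene Ccl27a had the largest decrease and an uneven one. Its adult CR arrays spread from 8.21 to 11.32 (median 10.05), while the aged CR arrays lay between 8.17 and 10.55 (median 9.28). The difference was -0.68 ± 0.16 (limma adjusted p = 0.0078), and 25 of 26 aged arrays were below the adult median. By time of day the difference was -1.11 at 4 h and -1.68 at 8 h, but -0.05 at 16 h and -0.09 at 20 h. The adult SD at 0, 4, 8, 12, 16 and 20 h was 0.93, 0.77, 0.56, 0.78, 0.36 and 0.84, against 0.37, 0.28, 0.08, 0.14, 0.54 and 0.49 in aged cells, so the adult arrays were the more spread at 5 of 6 times and the aged arrays at 16 h. The span of Ccl27a overlaps that of Il11ra1 and the locus has near-identical copies, so the signal cannot be assigned to the 1 gene with certainty. Thy1, a surface protein of fibroblasts and neurons, fell by 0.57 ± 0.14 on the log2 scale and the neuropeptide gene Gal by 0.40 ± 0.10, with 21 and 22 of 26 aged arrays below the adult median. Olfml2a, which codes for a secreted matrix protein, fell by 0.46 ± 0.12 (limma adjusted p = 0.031), a call lost without any 1 of 3 arrays.

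**Figure D1:**
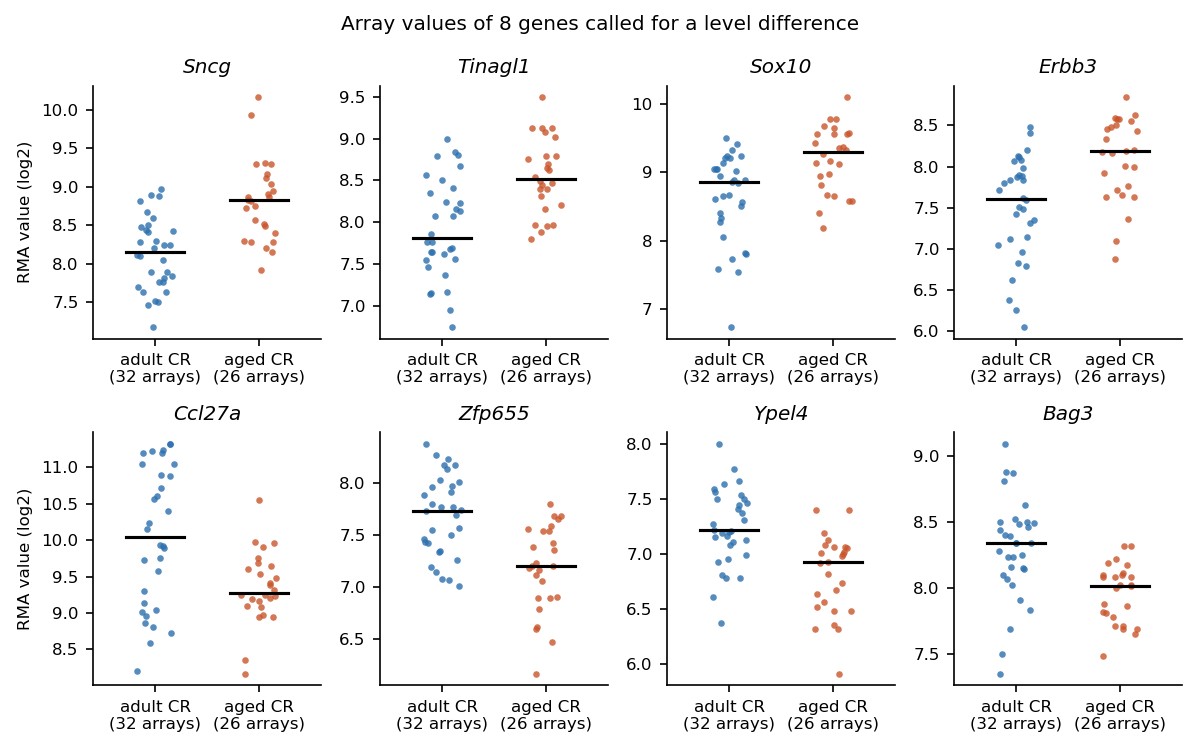
RMA values on the log2 scale (vertical axes) of 8 genes called for a level difference, in 32 adult CR arrays (blue) and 26 aged CR arrays (orange), with horizontal bars at the arm medians and sideways scatter for visibility only. Sncg, Tinagl1, Sox10 and Erbb3 were higher in aged cells and Ccl27a, Zfp655, Ypel4 and Bag3 lower. The arms overlap for every gene, and none of the aged arrays of Bag3 reaches the adult median of 8.34.

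The Schwann cell list held the largest share of called genes among the cell type lists. Of 21 measured members, 8 were higher and 0 lower in aged CR cells, against 1.48% and 0.456% of all genes. The list had 18 positive differences and a median of 0.30, against 0.00 over all genes. Sox10, the transcription factor that sets Schwann cell identity, ran from 6.74 to 9.50 (median 8.85) in adult and from 8.18 to 10.09 (median 9.29) in aged arrays, a difference of 0.58 ± 0.12 (limma adjusted p = 0.0018). The neuregulin receptor Erbb3 ran from 6.05 to 8.48 (median 7.61) and from 6.88 to 8.84 (median 8.19), a difference of 0.61 ± 0.13 (limma adjusted p = 0.0045). Both arms overlapped in both genes, with 19 and 23 of 26 aged arrays above the adult median. The other 6 were the transcription factor gene Pou3f1 (0.48), the potassium channel gene Kcna1 (0.44), the myelin genes Ncmap (0.42), Mbp (0.37) and Mal (0.33), and Plekhb1 (0.29). Egr2, which drives myelination, differed by -0.07 ± 0.05 and Ncam1 by -0.07 ± 0.04, neither called. Among receptors and ligands of Schwann cell growth signalling, 2 of 10 were higher, Erbb3 and the neurotrophin receptor Ntrk3 (0.57 ± 0.16, limma adjusted p = 0.038, lost in 16 single-array omissions).

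The summed Schwann level moved with age and with time of day. The mean of the 21 genes ranged from 7.56 to 8.75 (median 8.36) in adult CR arrays and from 7.99 to 8.87 (median 8.53) in aged ones, with 19 of 26 aged arrays above the adult median. At 0 h the 5 adult arrays lay between 7.56 and 7.84 and the 5 aged arrays between 7.99 and 8.36, with no overlap. At 16 h the difference of means was 0.10, with adult arrays from 8.42 to 8.64 and aged arrays from 8.43 to 8.78. These are bulk samples, so more cells of a type and more RNA per cell cannot be told apart. With an array's Schwann level as a covariate, limma called 57 genes, 48 of them among the 230, and the part of the Schwann level in the other differences was not tested. Without the arrays of 0, 8, 12 or 20 h, 3, 1, 2 and 5 Schwann genes were called, with replicates 1 to 4 only, 3 were, and without adult CR arrays 4 and 5 of 0 h, 7 were.

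Contractile genes of vessel walls formed the second group. Of 16 measured pericyte and smooth muscle genes, 4 were higher and 0 lower, against 1.48% and 0.456% of all genes. Of these 16 differences 15 were positive, and the median was 0.26. Myh11, the smooth muscle myosin, ran from 8.69 to 11.84 (median 11.03) in adult and from 10.64 to 12.02 (median 11.32) in aged arrays, a difference of 0.48 ± 0.12 (limma adjusted p = 0.020). The kinase gene Mylk rose by 0.47 ± 0.12, the myosin light chain gene Myl9 by 0.39 ± 0.11 and the smooth muscle actin gene Acta2 by 0.31 ± 0.09, the last 2 losing their call in 29 and 8 single-array omissions. The lowest arrays of Myh11 and Acta2 were adult, and no aged array of Acta2 was below 10.60. The list mean ran from 7.11 to 8.25 (median 7.86) in adult and from 7.67 to 8.57 (median 8.03) in aged arrays, with 23 of 26 aged arrays above the adult median. With it as a covariate, limma called 58 genes, 55 of them among the 230, and its part in the other differences was not tested. Leaving out the arrays of 0, 8 or 12 h left 0 members of the list called by limma, leaving out 16 or 20 h left 2 and 1, and replicates 1 to 4 alone gave 2.

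Of 24 muscle stem cell genes measured, limma called 0 and 9 differences were positive, with a list median of -0.02. Pax7 differed by 0.06 ± 0.07, Myf5, a factor of the committed lineage, by -0.14 ± 0.10, and Itga7, the laminin receptor, by 0.12 ± 0.06. The largest difference was that of the Notch target Hey1, at -0.26 ± 0.08 (limma adjusted p = 0.082), which was called lower with time as 6 levels (-0.28, limma adjusted p = 0.031). The list mean ran from 9.29 to 9.95 (median 9.64) in adult and from 9.45 to 9.86 (median 9.62) in aged arrays. At 8 h it ran from 9.60 to 9.83 in adult and from 9.45 to 9.53 in aged arrays, without overlap, and at the other 5 times the arms overlapped. Among 12 genes of myogenic commitment 1 was called higher, beside 1.48% of all genes. It was the transcription factor gene Mef2a, at 0.29 ± 0.08 (limma adjusted p = 0.022).

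Tendon and fibre lists had negative medians and no called member. The tenocyte list had a median of -0.37 over 7 genes, 6 of them negative, led by the cartilage and tendon matrix gene Chad (-0.66 ± 0.25, limma adjusted p = 0.16) and Thbs4 (-0.47 ± 0.21, limma adjusted p = 0.28). Its list mean ran from 5.07 to 7.13 (median 5.98) in adult and from 5.07 to 6.54 (median 5.54) in aged arrays, and 2 of 26 aged arrays exceeded the adult median. Of 18 myofibre genes 0 were called, with a median of -0.08. The fibroadipogenic list had 1 gene higher and 1 lower of 15, Cxcl14 and Thy1, and the endothelial list 1 of 11 higher, Aqp1. The shares over all genes were 1.48% higher and 0.456% lower.

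**Figure D2:**
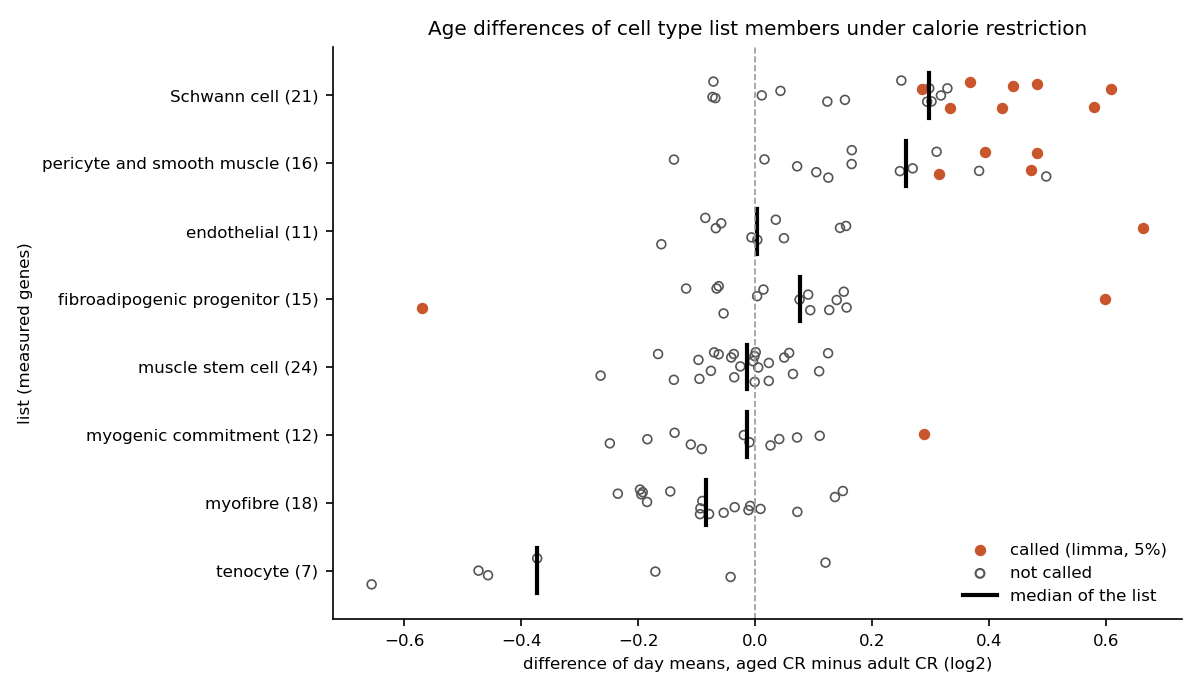
Difference of day means, aged CR minus adult CR on the log2 scale (horizontal axis), for the measured genes of 8 cell type lists (rows, with the number of genes). Filled points are genes called by limma at 5%, open points were not called, and black bars are list medians. The Schwann bar lies at 0.30 with 8 filled points and the pericyte bar at 0.26 with 4, whereas the muscle stem cell bar lies at -0.02 with none.

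Metabolic and matrix genes moved singly, beside 1.48% of all genes called higher and 0.456% lower. Lists with 1 or 2 calls are given for the genes, not as a result about the list. Slc2a4, the insulin-responsive glucose transporter, rose from a median of 6.50 (6.04 to 7.21) to 6.93 (6.41 to 7.64), by 0.41 ± 0.08 (limma adjusted p = 0.0011), with 22 of 26 aged arrays above the adult median. Together with the lactate dehydrogenase gene Ldhb (0.28 ± 0.07) it made 2 of 17 glycolysis genes higher and 0 lower. Igf2, a growth factor of the insulin family whose span overlaps Mir483 and Igf2os, went from 10.26 (9.69 to 10.58) to 10.50 (10.16 to 10.77), a difference of 0.26 ± 0.05 (limma adjusted p = 0.0026), and was the 1 called of 24 insulin and IGF genes. Of 36 collagen genes 2 were higher, Col27a1 (0.51 ± 0.11) and Col18a1 (0.39 ± 0.09), and of 38 matrix glycoproteins 2, Tnc and Sparcl1 (0.56 ± 0.14). Timp3, an inhibitor of matrix proteases, rose by 0.28 ± 0.06 and was the 1 called of 23 in its list.

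Defence and protein synthesis lists showed similar scattered calls, beside 1.48% of all genes called higher and 0.456% lower. The complement gene C4b was higher in 25 of 26 aged arrays than the adult median, by 0.45 ± 0.13 (limma adjusted p = 0.042, lost in 20 single-array omissions), 1 of 21 antigen presentation and complement genes. Ifitm1, an antiviral membrane protein, rose by 0.46 ± 0.12, 1 of 21 interferon-responsive genes, of which 17 had positive differences and a median of 0.10. Of 27 antioxidant genes 2 were higher, Prdx2 (0.28 ± 0.08) and Gstm2 (0.24 ± 0.07), the first lost in 18 single-array omissions. Among 49 translation factors 2 were lower, the initiation factor Eif2s2 (-0.24 ± 0.06) and the elongation factor Eef1g (-0.17 ± 0.05). Of 68 cytosolic ribosomal protein genes limma called 0, and 62 differences were negative with a median of -0.03. Atg7, an autophagy enzyme, was lower by -0.17 ± 0.05 (limma adjusted p = 0.049), a call lost in 38 of 58 single-array omissions. The cell cycle inhibitor gene Rb1 was higher by 0.33 ± 0.08, the 1 called of 11 senescence genes, and its span overlaps Lpar6.

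Whether an age difference belonged to the restricted diet was asked by setting it against the same difference on the control diet, from 22 adult and 24 aged control arrays, with 1 to 5 adult and 4 aged arrays per time and none shared with the CR arms. The adult control arrays carry an age tag of 83 to 97 weeks that conflicts with their titles, and the titles were used. Of the 230 genes, 203 (88.3%) had the same sign on the control diet, against 55.7% of all genes, 161 of them higher and 42 lower. The same test called 50 genes there, of which 18 were among the 230. Tnc differed by 1.24 ± 0.19 on the control diet and 0.64 under CR, Olfml2a by -0.82 ± 0.14 and -0.46, Gal by -0.65 ± 0.11 and -0.40, and Sox10 by 0.58 in both. For some genes the control difference was near 0. Ceacam1 differed by -0.02 ± 0.15 there, Ntrk3 by -0.09 ± 0.18, Fndc3c1 by -0.01 ± 0.13 against -0.43 ± 0.11 under CR, and Ypel4 by -0.06 ± 0.10.

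The test of the difference between the 2 age effects called 0 of 11853 genes with limma (0%), with 908 (7.66%) at an unadjusted p under 0.05 and a lowest adjusted p of 0.11. With time as 6 levels it also called Rasl10a, where the age effects differed by 0.66 ± 0.12. In that fit the 20 h mean of the adult control arm is 1 array. In the cosine fit Rasl10a differed by 0.19 under CR and by -0.37 on the control diet and was not called. Among the 230 genes, 56 had an unadjusted p under 0.05, including Ceacam1 (0.64 ± 0.20, limma adjusted p = 0.35) and Ypel4 (-0.38 ± 0.14, limma adjusted p = 0.43). The 230 were called for the CR difference, which is part of this test. Their count is raised by that choice and cannot be set against the share over all genes. The other genes of smallest p, besides Rasl10a, were Olig1, a glial factor (-0.03 under CR, 0.46 on the control diet), Ager, a receptor for glycated proteins (0.30 and -0.32), and the lipase gene Abhd12 (-0.14 and 0.28), none of them among the 230.

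**Figure D3:**
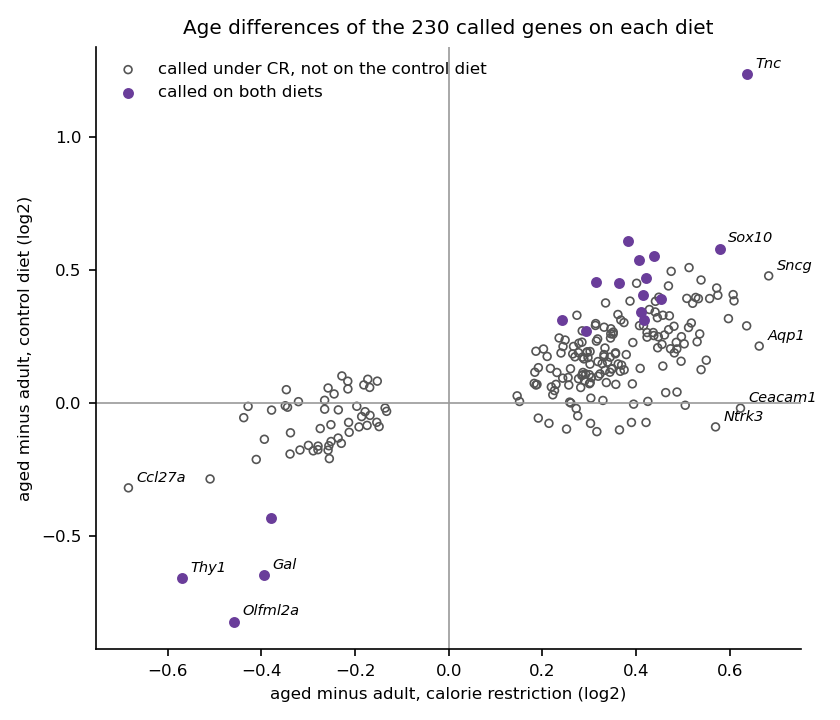
Age difference (aged minus adult, log2) under calorie restriction (horizontal axis) against that on the control diet (vertical axis) for the 230 genes called under CR, with 18 also called on the control diet filled. Most points, 203, have the same sign on both axes. Tnc is the highest point, and Ceacam1 and Ntrk3 lie near 0 on the vertical axis.

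Counts of called genes differed between times of day, a difference that was not itself tested. Tested at each time alone, limma called 180 genes at 0 h (1.52%), 66 higher (0.557%) and 114 lower (0.962%), and 54 at 8 h (0.456%), 24 higher (0.202%) and 30 lower (0.253%). It called 6 genes at 4 h (0.0506%), 3 higher and 3 lower (0.0253% each), 3 at 20 h (0.0253%), 2 higher (0.0169%) and 1 lower (0.00844%), and 0 at 12 h and 16 h, where 519 and 866 genes had an unadjusted p under 0.05. In all 242 genes were called at 1 or more times, and 1, the general transcription factor gene Gtf2b, at both 0 h and 8 h. Of the 180 genes at 0 h, 35 were also called for the daily mean, and of the 54 at 8 h, 7. The arms did not overlap for 36 higher and 47 lower genes of the 180 and for 16 higher and 23 lower genes of the 54, members that their call at that time selects, and over all genes they did not overlap for 2.05% at 0 h and 4.77% at 8 h. With array weights limma called 16 genes at 0 h, 70 at 8 h, 12 at 12 h and 13 at 16 h, so the excess at 0 h was lost. The counts hung on single arrays. At 0 h they were 60 and 77 without aged arrays 3 and 1, 84, 99 and 95 without adult arrays 1, 3 and 4, and 344 without adult array 5, and 64 without adult arrays 4 and 5 together. At 8 h they were 6 without adult array 4, 7 without aged array 2, 25 without adult array 1 and 33 without aged array 4.

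At 0 h, the largest decreases in aged CR cells were those of Myog and Mymk. They were the 2 called of 12 myogenic commitment genes, beside 0.962% of all genes called lower at 0 h. Myog, the factor that switches on the differentiation programme, read 6.57, 4.84, 7.03, 8.02 and 5.22 in the 5 adult arrays and 4.56, 4.95, 4.64, 3.76 and 4.12 in the 5 aged ones. It was 3.81-fold lower (limma adjusted p = 0.037), although the lowest adult array lay inside the aged range. The aged Myog mean of 4.41 lay below the filter for dim probe sets (4.50), so the size of the fold is uncertain. Mymk, the membrane protein that lets myoblasts fuse, read 6.19, 5.02, 6.26, 8.54 and 6.08 against 4.89, 5.28, 5.07, 5.00 and 4.76, and was 2.67-fold lower (limma adjusted p = 0.019). Adult array 4 was the highest for both genes. Without adult arrays 4 and 5, Myog differed by -1.74 (limma adjusted p = 0.12) and Mymk by -0.82 (limma adjusted p = 0.26). With array weights neither gene was called (limma adjusted p = 0.13 for Myog and 0.16 for Mymk). Omission of a single array lost the Myog call in 7 fits and the Mymk call in 1. Myog was not called at the other 5 times, where its difference ran from -0.33 at 20 h to 0.40 at 4 h.

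Some Schwann and vessel genes were called higher at the same hour, beside 0.557% of all genes. Of the 21 Schwann genes 7 were called at 0 h, among them Erbb3 (adult 6.05 to 6.79, aged 6.88 to 8.01, 2.05-fold), Sox10 (6.74 to 7.82 and 8.18 to 8.66, 1.96-fold), Mal (9.07 to 9.61 and 9.99 to 10.45, 1.89-fold) and Kcna1 (8.64 to 9.48 and 9.64 to 10.09, 1.78-fold). These and Pou3f1 (2.18-fold) did not overlap between arms, beside 2.05% of all genes at 0 h, whereas Cldn19 (2.00-fold) and Mbp (1.65-fold) did. Of the pericyte and smooth muscle genes 2 were called, Rgs5 and Myh11, at 2.19-fold and 2.16-fold with overlap. Without adult arrays 4 and 5 these Schwann and vessel counts were 2 and 0. With array weights they were 1 (Mal) and 0, and with the mean of a gene's probe sets 4 and 0. Timp3 (adult 9.08 to 9.90, aged 9.99 to 10.73) and the desaturase gene Scd1 (8.21 to 9.15 and 9.30 to 9.93) were both 1.66-fold higher without overlap. The interferon factor Irf9 was 1.499-fold higher, and Pdia3, a folding enzyme of the endoplasmic reticulum, 1.57-fold lower. Outside the lists, and chosen after their values were seen, Inf2, an actin regulator, was 1.78-fold higher and Fndc5, which codes for the precursor of irisin, 1.84-fold lower at 0 h, both without overlap. Inf2 was also called higher for the daily mean (0.42 ± 0.06, limma adjusted p = 2.5e-06), with the same sign at all 6 times. Without adult arrays 4 and 5, Mal, Timp3, Scd1, Pdia3, Inf2 and Fndc5 were still called at 0 h, with limma adjusted p from 0.0024 (Inf2) to 0.034 (Scd1). Erbb3 (limma adjusted p = 0.087), Sox10 (0.060), Kcna1 (0.054), Irf9 (0.082), Myh11 (0.16) and Rgs5 (0.29) were not.

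At 8 h, limma called 2 of 38 matrix glycoproteins, 1 of 23 matrix proteases and inhibitors and 1 of 36 collagens lower in aged CR cells, against 0.253% of all genes. Thbs4, a thrombospondin of tendon, read 9.29, 8.95, 8.48, 10.43 and 8.58 in the 5 adult arrays and 6.79, 8.00, 7.46 and 6.53 in the 4 aged ones, with no overlap. It was 3.86-fold lower (limma adjusted p = 0.038), a call lost in 7 single-array omissions and under 9 of 19 alternatives. The tenocyte list mean at 8 h ran from 6.01 to 6.85 in adult and from 5.07 to 5.85 in aged arrays, also without overlap, and its part in these differences was not tested. The muscle stem cell mean did not overlap between arms at 8 h either, and with it as a covariate limma called 4 genes at 8 h in place of 54, among them Tenm2 but not Thbs4 (-2.15, limma adjusted p = 0.057). The protease gene Mmp2 (adult 9.46 to 10.03, aged 8.55 to 9.16) was 1.85-fold lower, and Col6a1, a collagen around fibres (10.21 to 10.66 and 9.68 to 9.95), and the laminin gene Lama2 (8.59 to 8.91 and 8.07 to 8.52) were 1.49-fold and 1.41-fold lower, all without overlap. Their calls were lost in 6 (Mmp2), 1 (Col6a1) and 6 (Lama2) single-array omissions and with the stem cell covariate (limma adjusted p = 0.23, 0.16 and 0.26). Tenm2, an adhesion protein of neurons, read 7.16, 9.01, 9.37, 8.66 and 8.83 against 6.79, 7.18, 6.93 and 6.68. It was 3.27-fold lower (limma adjusted p = 0.018), but with the mean of its probe sets the difference was -0.65 (limma adjusted p = 0.11).

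Other genes were higher at 8 h. The small heat shock gene Hspb7 ran from 5.11 to 6.24 in adult and from 6.51 to 8.09 in aged arrays, 2.90-fold higher. Its daily mean was called higher too (0.61 ± 0.15, limma adjusted p = 0.012). Cdkn1a, the p21 cell cycle inhibitor, ran from 10.31 to 10.77 and from 10.88 to 11.11, 1.32-fold higher without overlap (limma adjusted p = 0.032). Kif20a, a motor protein of dividing cells, was 1.54-fold higher with overlap. Hspb7, Cdkn1a and Kif20a lost their calls in 3, 6 and 6 single-array omissions and with the stem cell covariate (limma adjusted p = 0.057, 0.28 and 0.099). At 4 h the largest changes were Zscan22, 1.97-fold higher, and the peroxisome import gene Pex13, 1.79-fold lower, and at 20 h Rabl3, 1.89-fold higher, and Carf, 1.82-fold lower. These 4 lost their call in 5 to 9 single-array omissions each.

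**Figure D4:**
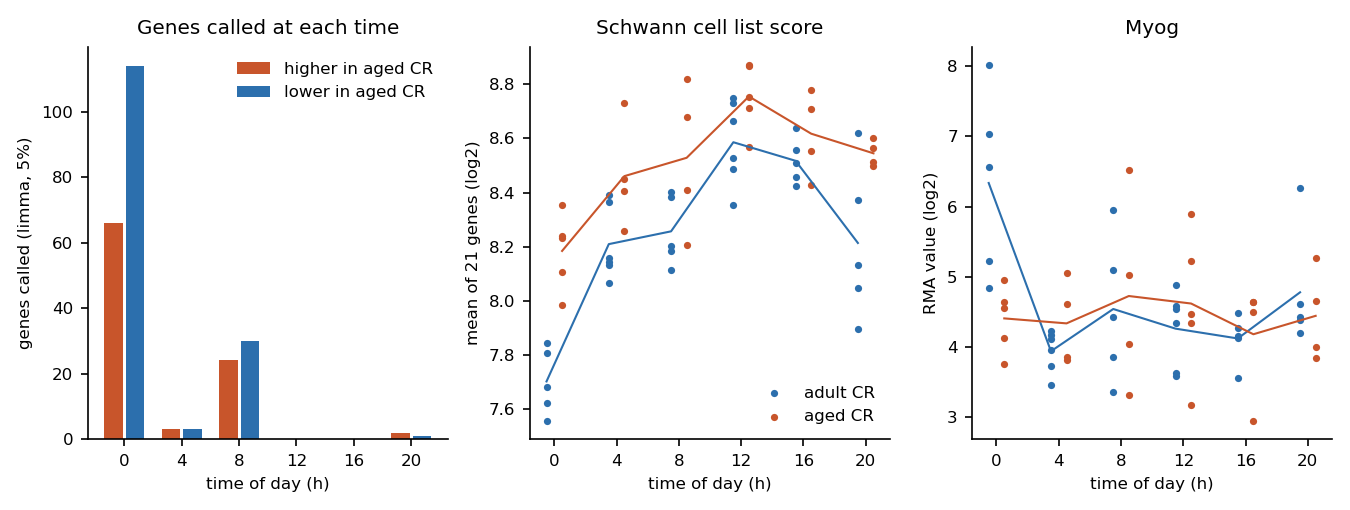
Left, genes called by limma at each time of day (bars from 0, aged CR higher in orange, lower in blue). Middle, mean of the 21 Schwann genes, and right, Myog, on the log2 scale in each adult CR (blue) and aged CR (orange) array against time of day, with lines through the means. The tallest bars are those of 0 h (66 higher and 114 lower) and 8 h (24 and 30), of which array weights left 16 calls at 0 h and 70 at 8 h, the Schwann arms are separate at 0 h, and the high Myog arrays are adult arrays of 0 h.

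No clock gene measured was called for a difference of level or of rhythm between aged and adult CR cells. The promoters shown next are stretches of clock gene windows that hold the recognised sequences, printed to show where these letters lie, in capitals (E-box CACGTG, D-box TTATGNAA, both strands searched, from RefSeq windows of assembly GRCm38.p6, 5′ to 3′ on the gene's strand):
Per1 at chr11:69098774-69098939, plus strand, with an E-box and a D-box: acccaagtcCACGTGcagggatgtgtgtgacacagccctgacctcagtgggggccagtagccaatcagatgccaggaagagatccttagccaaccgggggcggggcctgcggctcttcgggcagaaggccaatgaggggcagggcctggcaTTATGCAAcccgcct
Per3 at chr4:151044810-151044880, minus strand, with 2 D-boxes: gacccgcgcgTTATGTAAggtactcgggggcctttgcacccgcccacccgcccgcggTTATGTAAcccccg
Ciart at chr3:95882263-95882353, minus strand, with 3 E-boxes: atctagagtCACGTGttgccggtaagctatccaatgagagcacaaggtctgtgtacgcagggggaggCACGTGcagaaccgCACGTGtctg
Tef at chr15:81802528-81802563, plus strand, with an E-box: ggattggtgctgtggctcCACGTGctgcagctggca
The E-box was found in 7.15% and the D-box in 3.38% of 32851 promoter windows, and in 4 and 2 of 14 clock genes with a window. A clock gene was counted if any of its windows matched, so these counts and the shares of windows are unlike measures. A match describes letters only and is not a binding site.

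Arntl, the activator that opens the cycle, peaked at 20.1 h ± 0.39 (SE) in the adult and 20.05 h ± 0.33 in the aged CR arm, a shift of -0.09 h ± 0.51, with amplitudes of 1.197 ± 0.13 and 1.55 ± 0.14 on the log2 scale, the distance from day mean to peak. At 20 h it read 7.61, 7.97, 7.51, 7.33 and 7.78 in adult arrays and 8.12, 7.22, 8.05 and 7.23 in aged arrays. At 8 h it read 5.80, 5.22, 4.95, 5.99 and 4.52 against 3.86, 5.54, 4.50 and 5.11. Peak and trough arrays overlapped between arms, and the rhythm difference was not called (limma adjusted p = 0.68). Npas2 peaked at 21.1 and 21.6 h with amplitudes of 0.64 and 0.54, and Clock at 17.9 and 18.9 h with 0.33 and 0.28.

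The repressors followed in the opposite part of the day in both arms. In adult arrays Per3 peaked at 9.81 h ± 0.40, and in aged arrays at 10.1 h ± 0.44, with amplitudes of 1.01 and 1.05. Per2 peaked at 12.1 and 11.6 h (0.80 and 0.98) and Per1, whose promoter carries both motifs, at 10.2 and 8.87 h (0.43 in both). Ciart, with 3 E-boxes in its window, had amplitudes of 0.12 ± 0.06 and 0.22 ± 0.06 and was rhythmic in the aged arm (limma adjusted p = 0.021) and not called in the adult arm (limma adjusted p = 0.25). Cry2 and Bhlhe40 were rhythmic in adult cells, with amplitudes of 0.49 and 0.26, and not called in aged cells, at 0.30 and 0.10, but the rhythm difference did not pass for either of them (limma adjusted p = 0.83 and 0.43). Nr1d2, a repressor of Arntl, peaked 0.92 h ± 0.41 earlier in aged cells, with an unadjusted p of 0.021 and a limma adjusted p of 0.42. The output factors Dbp (7.77 and 6.92 h), Tef (10.1 h in both) and Hlf (10.98 and 11.09 h) were rhythmic in both arms.

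Across all genes, fewer were called rhythmic in the aged than in the adult CR arm, which had more arrays. Limma called 2650 rhythmic genes (22.4%) in 32 adult arrays and 1951 (16.5%) in 26 aged arrays. With replicates 1 to 4 only, which gives both arms 4 arrays at each time, it called 1843 and 1688. Both lists held 929 genes (7.84%), 35.1% of the adult and 47.6% of the aged list. Of these, 73.0% peaked within 2 h of each other, against 16.7% for random times, and 11 were over 6 h apart. Their median shift was -0.23 h, with quartiles at -1.38 and 0.86 h. Amplitudes in the 929 genes had medians of 0.30 in adult and 0.33 in aged cells, and 574 (61.8%) were larger in aged cells. The median amplitude difference of 0.02 was smaller than its jackknife SE over arrays of 0.04, and was -0.0035 with replicates 1 to 4. The median shift was likewise smaller than its SE of 0.31 h. The 1721 genes called in adult cells alone had median amplitudes of 0.25 in adult and 0.14 in aged cells, and the 1022 called in aged cells alone 0.13 and 0.28, values that the calls themselves select. Between 20 and 24 h lay the peaks of 19.5% of the adult and 25.4% of the aged rhythmic genes.

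A single gene was called for a rhythm difference, 1 of 11853 (0.00844%), with 1169 (9.86%) at an unadjusted p under 0.05. Fzd7, a Wnt receptor of satellite cells, reached its maximum at 7.39 h ± 1.07 with adult and at 19.2 h ± 0.83 with aged CR cells, with amplitudes of 0.20 and 0.28 (limma adjusted p = 0.020). At 20 h it read 4.97, 4.86, 4.84, 4.61 and 5.17 in adult and 5.56, 5.58, 5.61 and 5.37 in aged arrays, which did not overlap. At 4 h it read 5.44, 5.10, 5.59, 5.37, 5.03 and 5.67 in adult and 4.86, 5.02, 5.05 and 5.09 in aged arrays, which overlapped only at the lowest adult values. The call was lost without any 1 of 6 arrays, with the mean of its probe sets, and without the arrays of 4, 8 or 20 h. The genes of next smallest p were the Wnt ligand gene Wnt7b (peaks at 20.4 and 11.6 h) and Nhlrc2 (a shift of -7.53 h), both with limma adjusted p = 0.19, and the sheddase gene Adam17 (22.1 and 10.7 h) and the glucose transporter gene Slc2a3 (8.17 and 2.02 h), both with limma adjusted p = 0.21. Of 24 measured Wnt genes, 11 were rhythmic in adult and 4 in aged cells.

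**Figure D5:**
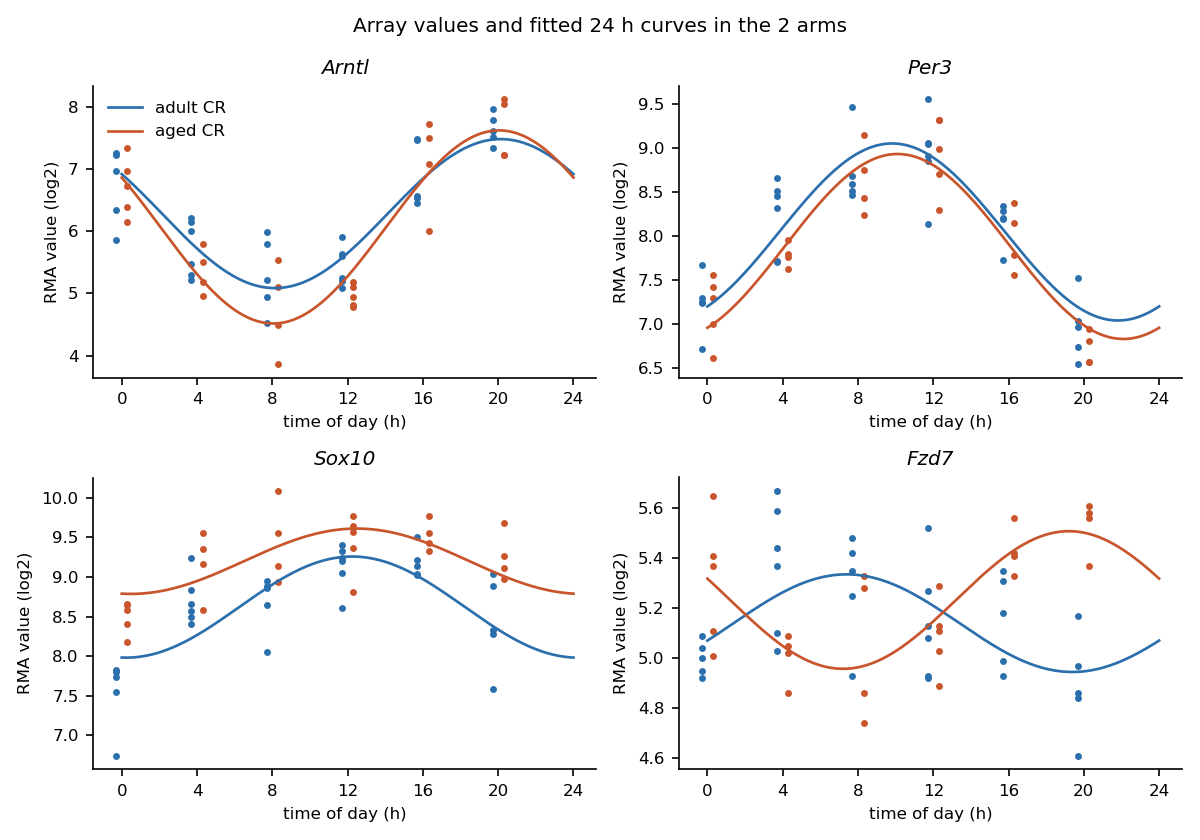
RMA values on the log2 scale of Arntl, Per3, Sox10 and Fzd7 in each adult CR (blue) and aged CR (orange) array against time of day, with the fitted 24 h curves. The Arntl and Per3 curves of the arms nearly coincide, the Sox10 day mean is higher by 0.58 in the aged arm, and the Fzd7 curves are highest at 7.39 h (adult) and 19.2 h (aged).

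The counts of rhythmic genes in other groups stand beside 22.4% of all genes in adult and 16.5% in aged cells. Of 14 glucocorticoid-induced genes, 12 were rhythmic in adult and 8 in aged cells, with Tsc22d3, the GILZ gene, at amplitudes of 0.93 and 0.79 and the stress kinase inhibitor gene Ddit4 at 0.57 in adult and 0.30 in aged cells (limma adjusted p = 0.11 in the latter). Of 21 Schwann genes, 15 were rhythmic in adult and 10 in aged cells, all 10 of them shared, with mean peaks at 13.0 and 12.9 h, and their median amplitude difference was -0.17. The myelin gene Mag had amplitudes of 0.85 and 0.56 and Mbp 0.49 and 0.31. Sox10 peaked at 12.2 and 12.5 h with amplitudes of 0.64 ± 0.11 and 0.41 ± 0.12, and its rhythm difference was not called (limma adjusted p = 0.80). None of the pericyte and smooth muscle genes (4 in adult) and none of the myogenic commitment genes (4 in adult) were called rhythmic in aged cells, and no rhythm difference was called in these lists by limma. Antioxidant genes were rhythmic in 10 of 27 cases in adult and 2 in aged cells.

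Lipid synthesis and ribosomal protein genes had more rhythm calls in the aged arm. Among 23 genes that make sterols and fatty acids, limma called 9 rhythmic in adult and 13 in aged cells, 6 in both. The fatty acid synthase gene Fasn had an amplitude of 0.07 in adult and 0.33 in aged cells, the squalene synthase gene Fdft1 0.15 and 0.43, and the desaturase gene Fads2 0.06 and 0.35. Their unadjusted rhythm difference p was 0.0061, 0.0079 and 0.0010, and none was called after adjustment. The related Scd1 was rhythmic in both, at 17.4 h (0.49) and 19.1 h (0.54). Of 68 cytosolic ribosomal protein genes, 16 were rhythmic in adult and 28 in aged cells, 12 in both, with mean peaks at 5.98 and 7.69 h. Their median amplitudes were small, 0.08 and 0.11 over all 68, and 0 had a called rhythm difference by limma. Among stem cell genes, Chrdl2, a secreted BMP antagonist, had an amplitude of 0.12 in adult and 0.51 in aged cells.

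Outside the clock list, large amplitudes were found for the following genes. Sphk2, whose span overlaps Dbp and Rpl18, had 1.52 ± 0.10 in adult and 1.405 ± 0.11 in aged CR cells and peaked at 7.99 and 8.14 h. The fast troponin gene Tnnc2, a fibre gene, had 1.19 ± 0.29 and 0.89 ± 0.31 (limma adjusted p = 0.081 for the aged rhythm), the oxygenase gene Fmo2 1.14 and 0.89, and the receptor gene Vipr2 1.08 ± 0.13 and 0.62 ± 0.15. Crybg1 had 0.79 in adult and 1.01 in aged cells and peaked at 20.8 and 20.7 h. None of these differences in rhythm was called.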

How the data were processed

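The authors deposited RMA values per probe set. The method is named in the submitters' processing notes without a version. They run from 1.19 to 12.8, and the log2 base of the deposited values is inferred from this range. Per the labels' protocols, RNA was extracted with TRizol, and 25 ng was amplified with WTA2 in 17 cycles, which can compress differences. Names came from the platform annotation and RefSeq (GRCm38.p6). Of 45141 probe sets, 28898 had 1 symbol, 551 several and 15692 none listed, and 28689 matched RefSeq. A probe set had to reach the 40th percentile of means over all arrays (log2 4.50), and the brightest per gene was kept, which gave 11853 genes. The 58 CR and 46 control arrays were fitted in limma 3.58.1 (R 4.3.3, lmFit, eBayes) with a day mean, cosine and sine of 24 h period per arm of age and diet. Adjusted p values are Benjamini-Hochberg over all genes, at 5%. Single times used a mean per arm and time. The age effect on the control diet came from the same fit. A list's mean is the average log2 value of its measured genes in an array. Arrays have no read depth, so their number limits the precision. The p values weigh a difference against the residual spread between arrays, pooled over all arms, and treat arrays as independent. The design text gives 4 mice per time and diet group, whereas 4 to 6 arrays per arm and time are used here. Whether each array is a separate mouse is therefore not certain.

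Named genes followed a rule. It took the 12 largest called differences each way with the same sign at 5 or more times, the 8 smallest rhythm difference p values, all clock genes, and up to 4 called members and the 2 brightest markers per list. It also took the 4 smallest p values between diets, the 2 largest calls per time and the 5 largest amplitudes per arm. Further list members are given with their list. The members and the 47 lists were chosen with earlier results of these data known. Some items are not reported here. Replicate numbers were not used to pair the arms in the main fits. Over 26 same-numbered pairs the correlation of deviations ran from -0.21 to 0.22 (median -0.01), with 4 above 0.1. Those were replicates 1 to 3 of 0 h (0.22, 0.12 and 0.14) and replicate 4 of 12 h (0.16).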

Additional observations from a re-analysis of the deposited data

Results flagged for a closer look

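Over 88 groups of 4 to 6 arrays (each cell type list mean in an arm at a time, where tested), 2 held an array far from the others, and chance alone flags about 5% of groups. The mean of the myofibre genes was 6.87 in adult CR array 2 of 4 h, while the other arrays of that group lay between 5.50 and 5.70. The mean of the tenocyte genes was 6.54 in aged CR array 1 of 20 h, against 5.26 to 5.40 in the others. Fzd7 stood out because its daily curve differed between the ages under CR, with a limma adjusted p of 0.0199 for that difference.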

How the results depend on the processing

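The count of 230 level differences was 128 with replicates 1 to 4 only, 100 without the 0 h arrays, 63 without 8 h, 79 without 12 h, 103 without 16 h and 118 without 20 h. It was 57 with the Schwann and 58 with the pericyte score as a covariate, 231 with the stem cell score and 230 with the myofibre score, and 174 to 255 over omissions of single arrays. With the Schwann score, Mal (-0.021) and Pou3f1 (-0.030) changed sign. Both are members of the list whose mean is that score, so the fit itself removes much of their difference. The 1 rhythm difference was 0 with the mean of probe sets, replicates 1 to 4, array weights, or without 4, 8 or 20 h, and 2 with time as 6 levels, 10 with the first residual component and 2 with the Schwann score, and 0 to 1 over single arrays. Rhythmic genes were 1765 in adult cells without 16 h, and 2407 to 2681 in adult and 1747 to 1998 in aged cells over single arrays. The 242 genes called at single times were 373 without the dim filter, 395 with replicates 1 to 4, 85 without 0 h, 148 without 8 h, 161 without 16 h, 119 with array weights, 123 and 143 with the Schwann and pericyte scores, and 128 to 411 over single arrays. Without adult arrays 4 and 5 of 0 h, chosen after seeing the data, they were 134. The diet interaction was 1 with time as 6 levels and 0 to 0 over single arrays. Median amplitude and peak differences ran from 0.01 to 0.03 and from -0.32 to -0.14 h over single arrays, and were -0.0035 and -0.51 h with replicates 1 to 4, and the peak difference -0.04 h with the stem cell score. The 54 genes at 8 h were 4 with the stem cell score. With a replicate block (correlation 0.037) the counts were 267 level and 1 rhythm difference, 2655 and 1949 rhythmic genes, 251 at single times and 0 for the diet interaction. Omitting a time also leaves fewer arrays, and no other cause was tested.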

Other observations

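Probe sets with no listed gene also held age differences under CR. Of 27085 probe sets past the filter, 8145 had no listed gene, and limma called 117 of them, 71 higher and 46 lower in aged cells, which is 1.44% against 1.73% of the named probe sets. The spread between arrays of a group was close in the 2 arms, with a median residual SD per gene of 0.251 in adult and 0.256 in aged CR cells, and 54.5% of genes had the larger SD in aged cells.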
